A study of Mus musculus with 2 samples.

Results

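Among 9950 cells kept from a culture of primary mouse brain pericytes (PCs) at passage 5 (PC5), 100 held at least 1 unique molecular identifier (UMI, the tag of 1 captured RNA molecule) of *Six3*, *Gfap*, *Sox2* or *Pax6*. These 100 cells were 1.01% of the PC5 cells (exact Clopper-Pearson 95% interval 0.818 to 1.22%) and are described here against the other 9850. The cells were selected on their UMIs of these 4 genes, so the levels of the 4 genes in them are a description and support nothing. A total of 14699 cells was kept in the series, 9950 from the PC5 library and 4749 from the library at passage 20 (PC20). A barcode was kept as a cell if over 1000 genes were detected and if mitochondrial transcripts made up less than 20% of its UMIs.

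PCs were isolated from the brains of female wild-type C57BL/6N mice aged 6 to 8 weeks, with 6 animals pooled per isolation, and were grown in endothelial growth medium and then in Pericyte Medium, with no gene deletion or drug in either culture. By the methods of the study the cultures at passage 5 and 20 came from separate isolations, whereas the deposited design text speaks of 1, so passage and isolation cannot be told apart. Each passage was 1 library. No test was therefore made, cells are not replicates, and every interval in the text covers counting error at the 95% level only. Summed over kept cells, the depth was 223054273 UMIs for PC5 and 191122251 UMIs for PC20. The same 20 cell barcodes occurred in both libraries, and 0 of the 100 cells carried one of them (exact upper bound 3.62%).

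*Six3* (chromosome 17, 85613608 to 85629302), *Sox2* (chromosome 3, 34650405 to 34652461) and *Pax6* (chromosome 2, 105668900 to 105697364) encode transcription factors of neural progenitors and of the developing forebrain and eye. *Gfap* (chromosome 11, 102887336 to 102900912, GRCm38 positions from GENCODE throughout) encodes the intermediate filament protein of astrocytes. Astrocytes are the glial cells whose endfeet cover brain capillaries, next to the PCs in the vessel wall. PCs come from mesoderm and neural crest and are usually recognised by *Pdgfrb*, *Cspg4* and *Rgs5*.

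The cells with the most UMIs of each of the 4 genes are identified by their barcodes, the 16-base sequences read from the droplet beads, because each carries a different mixture of transcripts.
Cell with the most Gfap UMIs: caagggatcaatgcac
Cell with the most Six3 and Sox2 UMIs: accctcatccaacaca
Cell with the most Pax6 UMIs: tcacatttcggtgaag
Cell with as many Six3 UMIs: tccatcgtccttggaa
Cell with the next most Gfap UMIs: atgggagtcgtcaaac

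The cell caagggatcaatgcac held 25 *Gfap* UMIs, 133 of *Mt3* and 0 of the 6 fibroblast markers (*Pdgfra*, *Lum*, *Dcn*, *Col3a1*, *Col1a1*, *Col1a2*) among 10203 UMIs. The cell accctcatccaacaca held 8 *Six3* and 8 *Sox2* UMIs with 2 fibroblast UMIs among 7505. The cell tcacatttcggtgaag held 4 *Pax6* and 2 *Sox2* UMIs with 0 fibroblast UMIs among 5436. The cell tccatcgtccttggaa held 8 *Six3* and 5 *Sox2* UMIs together with 83 fibroblast UMIs among 33815. The cell atgggagtcgtcaaac held 18 *Gfap* and 83 *Mt3* UMIs together with 98 fibroblast UMIs among 17716.

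The 4 genes were rare in PC5 and, except for *Gfap*, common in PC20. *Six3* had 104 UMIs in 38 PC5 cells (0.466 CPM, UMIs of the gene per 1000000 UMIs, summed over cells, interval 0.381 to 0.565) and 36965 UMIs in 4400 PC20 cells (193 CPM). *Sox2* had 96 UMIs in 39 PC5 cells and 12774 in 3601 PC20 cells (0.430 and 66.8 CPM). *Pax6* had 49 UMIs in 43 PC5 cells and 4782 in 2307 PC20 cells (0.220 and 25.0 CPM). *Gfap* had 97 UMIs in 20 PC5 cells (0.435 CPM) and was the 1 gene of the 4 with 0 UMIs in the kept PC20 cells, with an exact upper bound of 0.0776% on the share of cells with a UMI.

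Cells were thinned at random to 1 fixed number of UMIs, the same in both libraries, which left out 1103 PC5 and 275 PC20 cells as shallower. *Six3* was then seen in 0.192% of PC5 and 78.5% of PC20 cells, *Sox2* in 0.215% and 45.5%, and *Pax6* in 0.192% and 20.9%. *Gfap* was seen in 0.136% of PC5 cells and in 0 of 4474 PC20 cells. As a measure of background, each of 10 genes of blood, liver, pancreas, muscle, lung and gut was seen in at most 0.191% of the unthinned PC5 cells, in which the median depth was 21700 UMIs. The unthinned shares of *Six3* (0.382%), *Sox2* (0.392%) and *Pax6* (0.432%) were higher, and that of *Gfap* (0.201%) was close to it. The 10 genes together had 64 UMIs in all kept PC5 cells and 0 in the 100 chosen cells. With so few UMIs in the library, that 0 does not set the chosen cells apart. Per cell, *Gfap* was at 1 UMI in 10 of 20 cells and at 3 or more in 9, with a highest count of 25. *Six3* was at 1 UMI in 16 of 38 cells and at 3 or more in 13, and *Sox2* in 16 of 39 and in 14, each with a highest count of 8. *Pax6* was at 1 UMI in 39 of 43 cells, with a highest count of 4. Of the 10 genes, *Sftpc*, a lung surfactant gene, had 25 UMIs in 7 PC5 cells, whereas *Cd79a* had 19 UMIs in 19 cells and *Hba-a1* 6 in 6. The source of these UMIs was not tested.

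The genes overlapped within cells. *Six3* and *Sox2* occurred together in 22 of the 38 cells with *Six3*. Of the 20 cells with *Gfap*, 10 held another of the 4 genes. *Pax6* was mostly alone: 35 of the 43 cells with *Pax6* had none of the other 3 genes, and 34 of these had 1 *Pax6* UMI. A further 14 cells held *Six3* alone, 10 *Gfap* alone and 10 *Sox2* alone, and 31 held 2 or more of the 4 genes. The threshold was a single UMI, and 59 of the 100 cells stood at it, 6 held 2 UMIs, 35 held 3 or more, and the 9850 cells outside held 0. Below, the 65 cells with *Six3*, *Gfap* or *Sox2* are given apart from the 35 with *Pax6* alone. This division was made after earlier values were known.

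**Figure D1:**
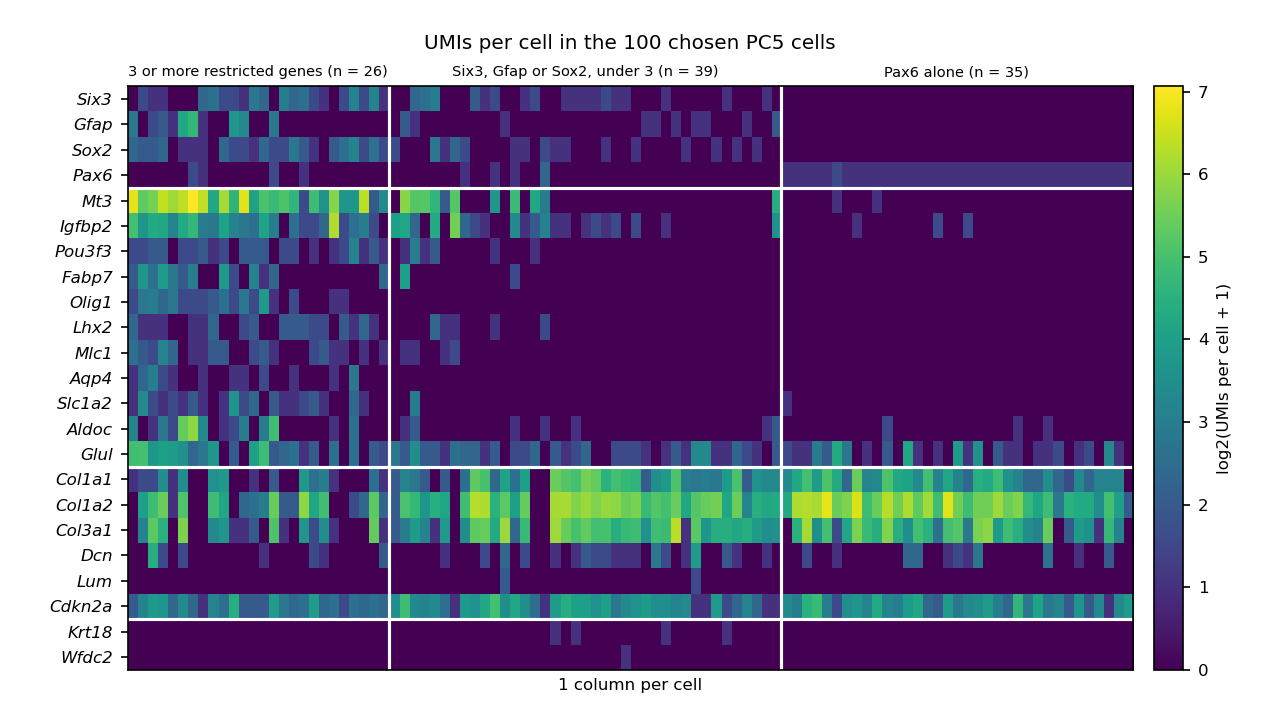
UMIs per cell of 23 genes (rows, log2 of UMIs + 1 in colour) in the 100 chosen PC5 cells (columns), grouped as the text describes. *Mt3* is seen in all 26 cells with 3 or more restricted genes, *Cdkn2a* in all 100 cells, and in the 35 *Pax6*-alone cells the second block is dark apart from *Glul*, seen in 25 of them, and scattered UMIs of other genes.

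The cells with *Pax6* alone were deeper than the others. Their median depth was 26121 UMIs (4710 genes), that of the 65 cells 17716 UMIs (3905 genes), and that of the unchosen PC5 cells 21705.5 UMIs. When the kept PC5 cells were divided by total UMIs into 5 bins of 1990, the *Pax6*-alone cells numbered 4, 5, 6, 8 and 12 from the fewest UMIs to the most. The cells with *Six3*, *Gfap* or *Sox2* numbered 23, 16, 7, 14 and 5. Each chosen cell was therefore set beside the 5 other PC5 cells nearest to it in total UMIs, 500 in all with a median of 20993.5 UMIs against 20992 in the chosen cells.

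**Figure D2:**
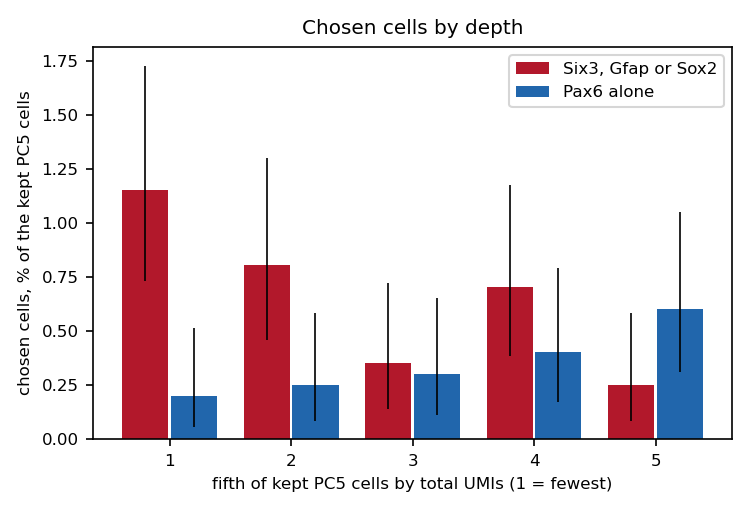
Share of kept PC5 cells (%, bars, with exact 95% binomial intervals) that held *Six3*, *Gfap* or *Sox2* (red) or *Pax6* alone (blue), in 5 equal bins of cells by total UMIs. The *Pax6*-alone share goes from 0.201% in the shallowest bin to 0.603% in the deepest, while the other goes from 1.16% to 0.251%.

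The genes farthest upward in the chosen cells, against the matched cells, included genes of astrocytes and of forebrain progenitors. Of 9579 genes seen in at least 10% of either set, 243 (2.54%) had at least 2 times the CPM in the 100 chosen cells and 94 (0.981%) had a log2 ratio of -1 or less. The counting interval lay past 0 for 230 and 70 of them. Both counts moved widely with the choice of cells, the scaling and the gene filter, as given in the closing section. The 15 genes farthest upward, ranked by the bound of the interval nearest to 0, were *Mt3*, *Olig1*, *Fabp7*, *Pou3f3*, *Crym*, *Rorb*, *Mlc1*, *Lhx2*, *Cadps*, *Trim9*, *Pantr1*, *A2m*, *Hepacam*, *Aqp4* and *Igfbp2*. Each of the 15 was seen in at least 10% of cells only in the chosen set, so they had to be higher there to be counted, and their ranks are a description. *Mt3*, a brain-enriched metallothionein that binds zinc and copper, had 1480 UMIs in 39 of the 100 cells (685 CPM) and 24 UMIs in 21 of the 500 matched cells (2.22 CPM), a log2 ratio of 8.27 (7.69 to 8.92). The highest count of *Mt3* was 133 in a chosen cell and 38 in any of the other 9850, of which 364 held it and 6 held 5 or more UMIs. Among the chosen cells 34 held 5 or more.

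Of the 15 genes, 11 had 0 UMIs in all 500 matched cells. *Olig1*, a transcription factor of the oligodendrocyte lineage, had 67 UMIs in 18 chosen cells, a log2 ratio of at least 6.80 when the matched cells are set to 3 UMIs. *Pou3f3*, a transcription factor of the forebrain, had 64 UMIs in 27 cells. *Lhx2*, a transcription factor of forebrain and eye progenitors, had 49 UMIs in 23 cells. *Mlc1* and *Hepacam*, which form a membrane complex of astrocytes, had 50 UMIs in 22 cells and 29 UMIs in 15 cells. *Aqp4*, the water channel of astrocyte endfeet, had 28 UMIs in 12 cells. *Fabp7*, a fatty acid binding protein of radial glia and astrocytes, had 99 UMIs in 15 cells and 1 UMI in the matched cells, a log2 ratio of 8.95 (6.44 to 14.27). That ratio rests on a matched count below 3 UMIs and cannot be set beside the bound of *Olig1*. *Igfbp2*, an insulin-like growth factor binding protein, had 461 UMIs in 48 chosen cells and 50 UMIs in 22 matched cells (213 and 4.63 CPM).

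Fewer genes were lower in the chosen cells. *Aldh1a2*, an enzyme of retinoic acid synthesis found in meningeal fibroblasts, had 19.0 CPM in the chosen cells and 53.9 CPM in the matched cells (log2 -1.51). *Il33*, a cytokine, had 13.4 and 35.2 CPM (log2 -1.39). *Bmp7*, a secreted growth factor, had 3.70 and 15.5 CPM (log2 -2.06). *Gnptg*, which encodes a subunit of the enzyme that tags lysosomal proteins, had 0 and 67 UMIs. The remaining 11 of the 15 farthest downward were *Dkk2*, *Cep95*, *Lgi2*, *Pla2g7*, *Il1rl1*, *Il16*, *Ltbp2*, *Prl2c3*, *Pus7l*, *Mtcl1* and *Nqo1*. *Prl2c3* and *Lgi2* were seen in 50 and 18 chosen cells, and each of the other 9 in 8 or fewer.

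In the 65 cells with *Six3*, *Gfap* or *Sox2*, 448 of 9351 genes (4.79%) were at least 2 times higher than in their 325 matched cells and 269 (2.88%) had a log2 ratio of -1 or less, with a counting interval past 0 for 385 and 154 of them. Of 18 astrocyte markers, 14 had at least 20 UMIs over both sets together, of which 11 were at least 2 times higher and 0 were lower by as much, with a median log2 ratio of 3.07. *Aqp4*, *Mlc1* and *Slc1a2* reached 20 UMIs only through the 65 cells, where they were high, so such counts and medians describe the genes with enough UMIs and support nothing. Over all 10395 genes with as many UMIs, 414 were higher and 487 lower by as much, with a median of -0.04. The summed level of the astrocyte list was 1508 CPM in the 65 cells and 498 CPM in the matched cells (log2 1.60, 1.51 to 1.68). *Aldoc*, a glycolytic enzyme enriched in astrocytes, had 157 and 10.2 CPM, with its 187 UMIs in 21 of the 65 cells and 57, 41 and 29 of them in 3 cells. The 39 cells described below that hold few neural genes had 11 of these UMIs. *Glul*, which makes glutamine from glutamate, had 262 and 81.7 CPM (log2 1.68). *Slc1a2*, the main glutamate transporter of astrocytes, had 62 UMIs in 21 cells and 3 UMIs in 3 matched cells (51.9 and 0.502 CPM). *Aldh1l1*, a folate enzyme used as an astrocyte marker, had 62.0 and 8.04 CPM (log2 2.95).

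*Lcn2* and *Serpina3n*, which astrocytes make when they become reactive, had 236 and 145 CPM in the 65 cells against 5.86 and 12.9 CPM in the matched cells (log2 5.33 and 3.49). Not every gene of the list was higher: *Gja1*, a gap junction protein, had 85.4 against 137 CPM, and *Clu*, a secreted chaperone, 58.6 against 80.2 CPM. *Gjb6* and *Ntsr2* had 0 UMIs in the 65 cells.

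Of the 12 genes of the oligodendrocyte lineage list, 4 had enough UMIs, and *Olig1* and *Olig2* were among them only through the 65 cells. *Olig1* and *Olig2* had 67 and 26 UMIs in the 65 cells and 0 in the matched cells, and *Cldn11*, a tight junction protein of myelin, had 14.2 against 3.85 CPM. *Sox10*, *Mag* and *Mog*, which mark the committed lineage and myelin, had 0 UMIs. Of the 18 genes of the neuron list, 5 had enough UMIs and 10 had 0 UMIs in the 65 cells. *Stmn2*, a regulator of microtubules, had 165 against 52.8 CPM and *Gap43*, a growth cone protein, 10.9 against 4.35 CPM. *Tubb3*, a tubulin of neurons, had 45.2 against 51.6 CPM and *Uchl1*, a ubiquitin hydrolase, 24.3 against 14.1 CPM. *Gad2*, which makes the transmitter GABA, had 17 UMIs against 3 in the matched cells, and had enough UMIs only through the 65 cells. *Rbfox3*, *Snap25*, *Syt1* and *Dcx*, which define neurons, had 0 UMIs in the 65 cells.

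Of the radial glia and progenitor list, 7 of 11 genes had enough UMIs, *Fabp7* only through the 65 cells, and *Fabp7* and *Hopx* were at least 2 times higher. The filament gene *Vim* had 2700 against 2543 CPM. *Nes*, another filament gene, had 63.6 against 63.1 CPM over the 65 cells but differed within them, with 24.4 CPM (11.7 to 44.9, 10 UMIs) in the 26 cells described below that hold most neural genes, against 68.3 CPM (57.5 to 80.6) in their matched cells, and 84.1 CPM in the other 39. Of 28 neural progenitor transcription factors, 13 had enough UMIs, with a median log2 ratio of 0.03. *Lhx2* and *Emx2*, both of the developing cortex, were at least 2 times higher, with 49 against 0 UMIs and 31.8 against 2.34 CPM, and were among the 13 only through the 65 cells. *Sox9*, a transcription factor of glial progenitors, was present in most PC5 cells, with 279 CPM in the 65 cells, 236 CPM in the matched cells and 206 CPM in PC20.

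**Figure D3:**
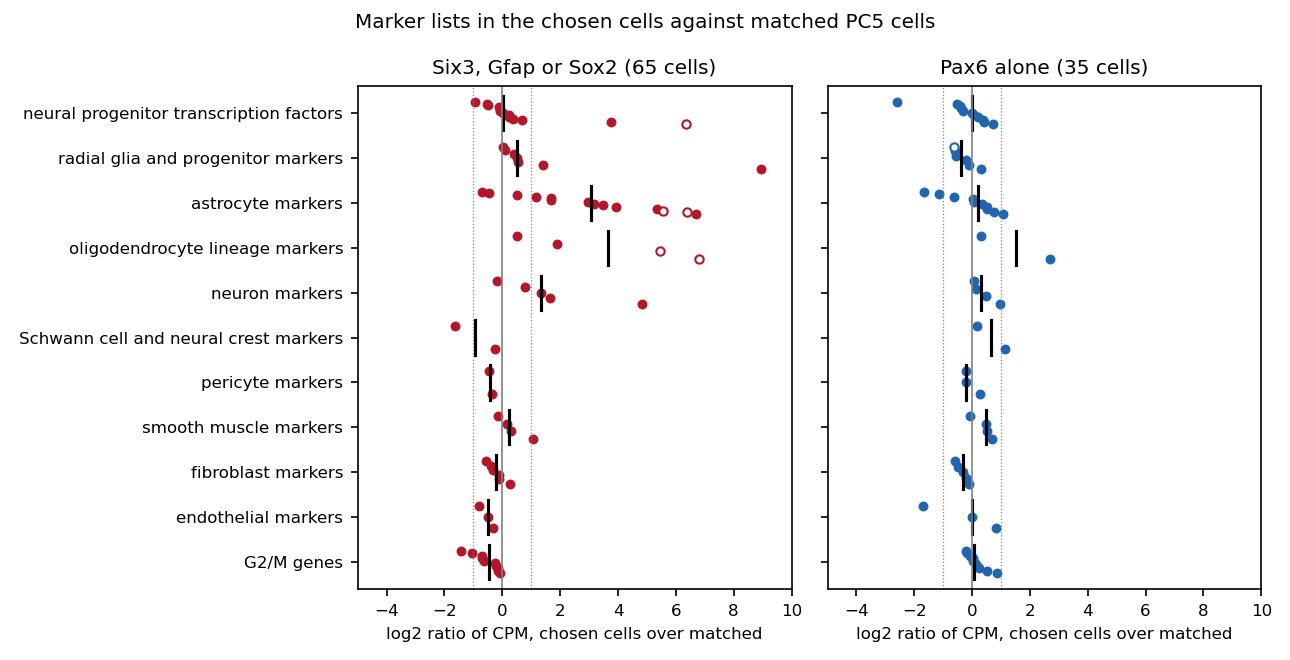
Log2 ratio of CPM of each gene with at least 20 UMIs (points, open where a set held 0 UMIs and the ratio is a bound against 3 UMIs) in 11 marker lists, with the list's median (black line), in the 65 cells with *Six3*, *Gfap* or *Sox2* (left) and the 35 *Pax6*-alone cells (right), each over its matched PC5 cells. The astrocyte median is 3.07 on the left and 0.19 on the right.

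The 35 *Pax6*-alone cells differed from their 175 matched cells by 259 of 9900 genes (2.62%) at least 2 times higher and 412 (4.16%) with a log2 ratio of -1 or less. The counting interval lay past 0 for 108 of the 259 and 145 of the 412, so most of these ratios were within counting error. Of 35 genes of the 6 neural and glial lists, 3 were higher and 3 lower by as much, and their median log2 ratio was 0.07. The astrocyte list had 1 gene higher and 2 lower of 10, with a median of 0.19. *Mt3* had 2 UMIs in these 35 cells, *Slc1a2* 1 UMI, and *Olig1*, *Pou3f3*, *Lhx2*, *Mlc1*, *Aqp4*, *Crym*, *Cadps*, *Trim9*, *Pantr1*, *A2m* and *Hepacam* 0 UMIs. *Glul* had 111 UMIs in 25 of the 35 cells (115 against 68.3 CPM in the matched cells). These cells are named by *Pax6* only. The genes farthest upward were *Fst*, an inhibitor of activin (78.6 against 13.0 CPM, log2 2.59, from 4 of the 35 cells), the chemokine *Cxcl1* (27.9 against 5.17 CPM), the retinal dehydrogenase *Aldh1a1* (29.0 against 6.00 CPM), *Cldn11* of the oligodendrocyte lineage list (13.5 against 2.07 CPM, log2 2.70, 1.40 to 4.05) and *Moxd1* (16.6 against 3.31 CPM). *Il33* and *Bmp7* had 0 UMIs in the 35 cells and 94 and 63 in the matched cells, and *Cdh5*, a cadherin of endothelial junctions, had 49.7 against 161 CPM. *Aqp1*, the water channel that leads the choroid plexus list, had 202 UMIs in the 35 cells (log2 1.33).

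Of the cells that held only 1 of the other 3 genes, a few carried *Mt3* and most held none. The 83 *Mt3* UMIs of the *Six3*-alone cells came from 4 of 14 cells, the 141 of the *Gfap*-alone cells from 3 of 10, and the 93 of the *Sox2*-alone cells from 3 of 10. Their matched cells held 3, 5 and 3 UMIs. *Igfbp2* was seen in 9 *Six3*-alone, 3 *Gfap*-alone and 5 *Sox2*-alone cells, with 22, 36 and 138 UMIs. The 21 *Fabp7* UMIs of the *Gfap*-alone cells came from 2 cells, with 15 and 6 UMIs. Of the 25 cells with a single UMI of *Six3*, *Gfap* or *Sox2*, 3 held *Mt3*.

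Neural and glial genes were concentrated in a minority of the 65 cells. For a count per cell, the 23 genes of the 6 lists that had a UMI in the chosen cells and in under 1% of the other PC5 cells were called restricted genes. They were chosen after their values were seen, so the counts describe the cells and test nothing. Of the 65 cells, 26 held 3 or more restricted genes, 16 held 1 or 2 and 23 held none. At 3 or more there were 0 of the 35 *Pax6*-alone cells (exact upper bound 10.0%), 0 of 500 matched cells (exact upper bound 0.735%), 1 of the other 9850 PC5 cells and 10 of 4749 PC20 cells. The highest number in 1 cell was 11 in the chosen cells and 4 in the other PC5 cells. Of the 31 cells with 2 or more of the 4 genes, 22 held 3 or more restricted genes, and of the 59 cells with 1 UMI of the 4 genes, 2 did.

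The 26 cells also held glial and forebrain genes that the count did not use. Of these, *Mt3*, *Pou3f3*, *Trim9* and *Rorb* are among the 15 genes ranked farthest upward in the chosen cells. *Gpm6b* and *Cst3* were named after their values were seen. The levels are therefore a description of the cells and support nothing. *Mt3* was seen in all 26, with 2 to 133 UMIs per cell and a median of 32.5, and had 2940 CPM against 2.44 CPM in their 130 matched cells. *Gpm6b*, a membrane proteolipid of neural cells, was seen in all 26 (759 against 8.78 CPM). *Cst3*, a secreted protease inhibitor abundant in astrocytes, was seen in all 26 (2396 against 258 CPM). *Pou3f3* was seen in 21 of 26 cells, *Aldh1l1* in 18, *Trim9* in 15 and *Rorb* in 14, and of these genes only *Aldh1l1* had UMIs in the 130 matched cells (19 UMIs). In the 39 other cells with *Six3*, *Gfap* or *Sox2*, *Mt3* was seen in 11 (348 CPM), *Gpm6b* in 17 (75.2 CPM) and *Pou3f3* in 6. *Gfap* itself was in 10 of the 26 cells, *Six3* in 20 and *Sox2* in 23.

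The 26 cells were shallow, and their fibroblast transcripts were low but present. Their median was 10888.5 UMIs, and 18 of 26 lay below the median of the kept PC5 cells. The 6 fibroblast markers together had 1842 CPM against 3691 CPM in the matched cells (6 genes, 755 and 7564 UMIs). Per cell the fibroblast level ran from 0 to 6140 CPM with a median of 932, against 3224 in the matched cells. Of the 26 cells, 16 lay below the 10th percentile of the 500 matched cells (1472 CPM), 3 held no fibroblast UMI and 2 lay at or above the matched median. *Col1a2*, a chain of type I collagen, was seen in 20 of 26 cells (930 against 1634 CPM) and *Col1a1* in 16 (210 against 601 CPM). *Lum*, a proteoglycan of fibroblasts, had 0 UMIs in the 26 cells, but also 0 in the *Pax6*-alone cells. Of the other cells with *Six3*, *Gfap* or *Sox2*, only 2 held it, with 3 and 2 UMIs, so its 0 does not set the 26 cells apart. *Pdgfrb*, the PC receptor for PDGF-B, had 22.0 CPM in the 26 cells (10.0 to 41.7, 9 UMIs) and 35.1 CPM in their matched cells, a value within that interval. The PC marker list summed to 43.9 against 55.6 CPM (log2 -0.34, -1.15 to 0.38), with an interval that holds 0. *Cspg4* and *Rgs5* had 0 UMIs in all 65 cells. Not all mesenchymal genes were low: smooth muscle markers summed to 630 CPM in the 26 cells and 402 CPM in their matched cells (log2 0.65, 0.44 to 0.85). The filament gene *Vim*, which is in the radial glia and progenitor list, had 2582 and 2395 CPM.

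In the 39 other cells with *Six3*, *Gfap* or *Sox2* the fibroblast markers summed to 3702 CPM, against 3860 CPM in their matched cells, and in the *Pax6*-alone cells to 2958 against 3493 CPM. Doublets were not called, and the part of droplets with 2 cells was not tested. The restricted genes together had 387 CPM in the 65 cells, 2.51 CPM in their matched cells and 1.03 CPM in the *Pax6*-alone cells. The part of free RNA in the cells with 1 UMI was not tested.

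**Figure D4:**
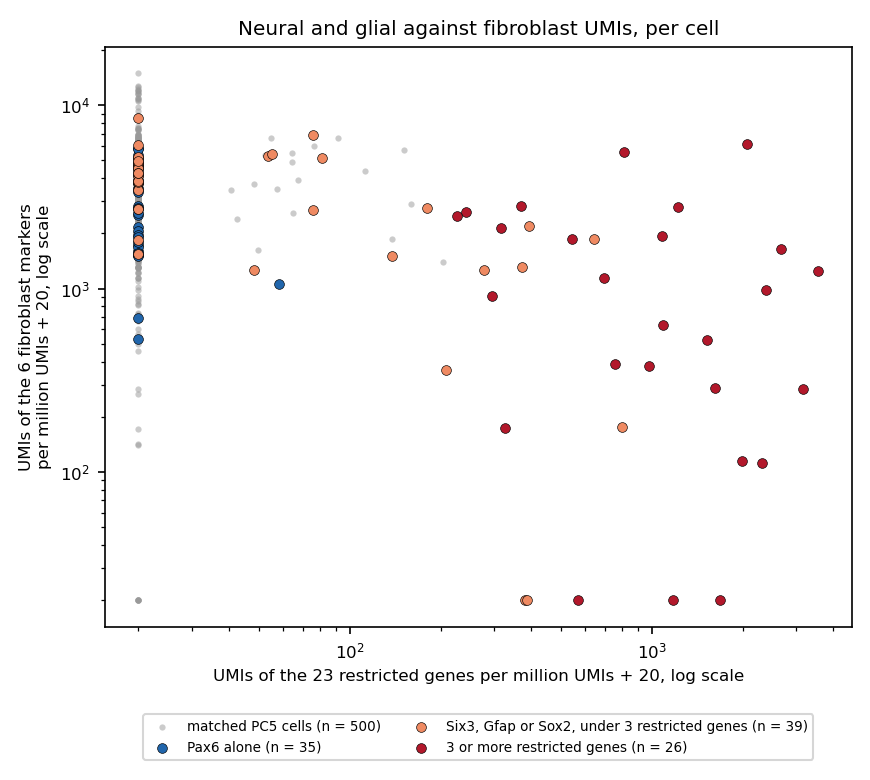
UMIs of the 6 fibroblast markers against UMIs of the 23 restricted genes, both as CPM of the cell plus 20 on log axes, in the chosen cells (coloured) and the 500 matched cells (grey). Points at the left edge hold no restricted gene, points at the lower edge hold no fibroblast UMI, and the 26 cells with 3 or more restricted genes spread from 0 to 6140 CPM of fibroblast markers.

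Other cell types and the cell cycle were read from marker lists. Genes of the G2/M phase summed to 151 CPM in the 26 cells and 306 CPM in their matched cells (log2 -1.02, -1.42 to -0.64), to 309 against 388 CPM in the 39 cells, and to 660 against 607 CPM in the *Pax6*-alone cells. S phase genes summed to 68.3 against 158 CPM in the 26 cells (log2 -1.21, -1.82 to -0.65). They summed to 139 against 144 CPM in the 39 cells and to 217 against 198 CPM in the *Pax6*-alone cells. *Mki67*, a proliferation marker, was seen in 3 of the 26 cells and in 15 of their 130 matched cells, which is 11.5% of each. Of the microglia and leukocyte list, only *Csf1r* had UMIs in the 65 cells, with 1 UMI, and *Ptprc*, *Cx3cr1* and *Aif1* were at 0. Smooth muscle genes summed to 589 against 443 CPM and endothelial genes to 178 against 220 CPM in the 65 cells and their matched cells, with *Cdh5* the most abundant endothelial gene and *Cldn5* at 0. By group, endothelial genes had 117 against 202 CPM in the 26 cells and 209 against 230 CPM in the 39. In the *Pax6*-alone cells they had 97.3 against 198 CPM.

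*Cdkn2a*, a gene of the cell cycle inhibitors p16 and p19, was seen in all 100 chosen cells (419 CPM), in 490 of 500 matched cells (579 CPM) and with 1 UMI in 1 of 4749 PC20 cells. In the 26 cells it had 410 CPM (350 to 477), with 1 to 20 UMIs per cell, against 713 CPM (677 to 751) in their 130 matched cells. The level in the chosen cells was nearer to the rest of PC5 than to PC20. The X-linked transcript *Xist* was seen in 91 of the 100 cells.

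The chosen cells were compared with PC20, where 3 of the 4 genes were common. Of 10628 genes seen in at least 10% of either set, 2112 (19.9%) were at least 2 times higher in the 100 chosen cells and 2156 (20.3%) had a log2 ratio of -1 or less. The matched PC5 cells gave similar shares against the same PC20 cells, 17.8% and 19.3% of 10491 genes, and the 2 comparisons share the PC20 cells. *Krt18*, *Wfdc2* and *Krt8*, which are epithelial genes, had 4, 1 and 0 UMIs in the 100 cells, against 174466, 70625 and 18810 UMIs in PC20 (1.85 against 913 CPM for *Krt18*). These 3 genes were also among the 5 farthest downward in the matched cells. *Col1a2* had 1510 CPM in the chosen cells, 1757 CPM in the matched cells and 0.0471 CPM in PC20. *Fabp7*, *Olig1*, *Olig2* and *Pou3f3*, present in the chosen cells, had 0 UMIs in PC20, and *Lhx2*, *Mlc1* and *Aqp4* had 1 UMI each.

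Other genes of the chosen cells were also common in PC20. *Mt3* was seen in 50.8% of PC20 cells (62.3 CPM), *Igfbp2* in 62.7% (76.2 CPM), *Aldoc* in 75.6% (94.9 CPM) and *Gad2* in 26.1% (16.4 CPM). The median depth was 33424 UMIs in PC20 and 20992 in the chosen cells. *Car9*, a carbonic anhydrase, and *Chchd10*, a mitochondrial protein, were seen in 12 and 9 of the 26 cells, at 102 and 70.8 CPM. They had 414 and 580 CPM in PC20, and 1.46 CPM and 0 UMIs in the 130 matched cells of the 26. Both are among the 50 PC20 genes of the profile share below. Of those 50, 15 were at least 2 times higher in the 65 cells with *Six3*, *Gfap* or *Sox2* than in their matched cells, and 1 was lower by as much. Over all 9351 genes seen in at least 10% of either set, 448 (4.79%) were higher and 269 (2.88%) lower by as much. Of the 15, *Wfdc2*, *Nrp2*, *Gdf15* and *Cd34* had 1, 2, 4 and 5 UMIs in the 65 cells, with counting intervals that hold 0.

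**Figure D5:**
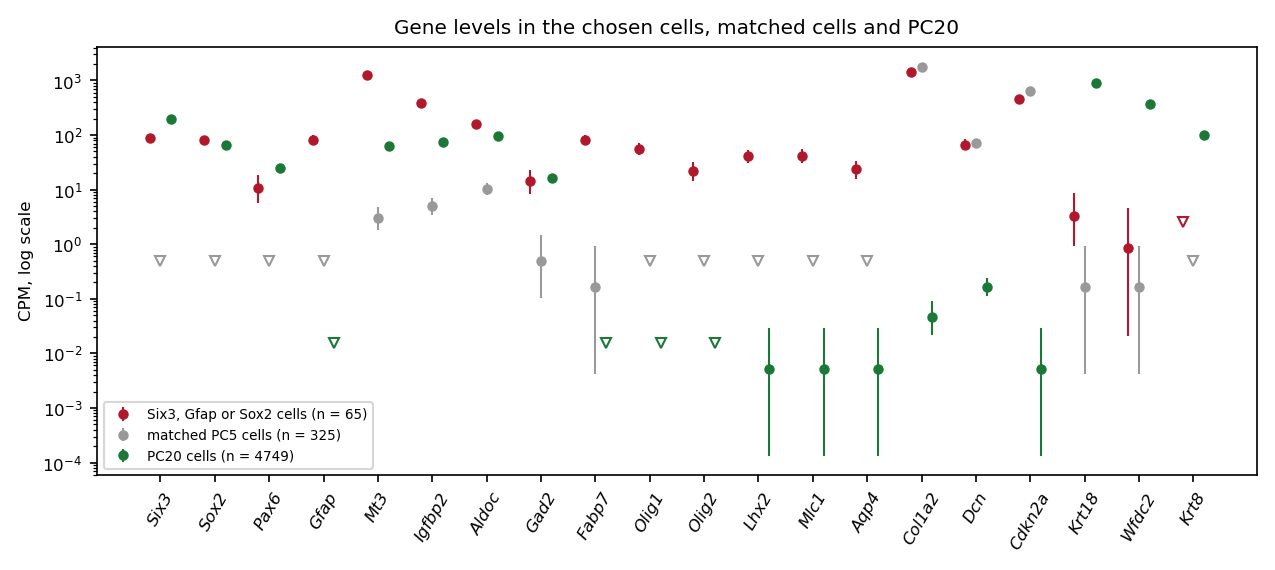
CPM (log axis) of 20 genes in the 65 PC5 cells with *Six3*, *Gfap* or *Sox2*, their matched cells and the kept PC20 cells, with exact 95% Poisson intervals. Open triangles stand at the level of 3 UMIs where a set held 0. The 65 cells were chosen on *Six3*, *Gfap* or *Sox2*, and the matched cells had none of these or of *Pax6*, so these levels in PC5 follow from the choice. In PC20, *Six3* and *Sox2* are high and *Gfap* has 0 UMIs. *Mt3* and *Aldoc* are above the matched cells in both the 65 cells and PC20, and are higher in the 65 cells than in PC20. *Olig1* has UMIs in the 65 cells and 0 in the other sets, and *Krt18* and *Wfdc2* are high in PC20.

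A profile share was computed for each cell. It is the share of UMIs from 50 genes raised in PC20 among the UMIs of those 50 and of 50 raised in the unchosen PC5 cells. The genes were taken among those most raised, each at 100 CPM or more. The 4 genes used for the choice of cells were not among them, although *Six3* had 193 CPM in PC20. The profile share is a range and not a cell type. The share was above 0.5 in 4 of the 100 chosen cells (4.00%, 1.10 to 9.93%), 0 of 500 matched cells, 1 of 9850 other PC5 cells and 4748 of 4749 PC20 cells. The median was 0.0874 in the chosen cells, 0.0691 in the matched cells and 0.991 in PC20, and the highest chosen cell was at 0.822. The 4 cells held 208 *Mt3* UMIs, 10 *Gfap* UMIs in 2 cells and 9 *Olig1* UMIs in 3 cells, with 0 UMIs of *Krt18*, *Krt8* and *Wfdc2*, and *Cdkn2a* was seen in all 4. Each held few profile UMIs, 35 to 162 of the PC20 genes and 13 to 41 of the PC5 genes, with 0 to 5 fibroblast UMIs. The PC5 genes include the fibroblast markers *Col1a1* and *Col1a2*, so the share is also higher where fibroblast UMIs are few.

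RefSeq promoters (GRCm38.p6, 250 bases before to 50 bases after the start site) were read for the 4 genes and for the 15 genes farthest upward, of which 10 were found. They were searched on both strands for ACAAAG and ACAATG, 6-base words that SOX transcription factors such as the product of *Sox2* can bind, and for the TATA box word TATAAA. The SOX words differ, so no match counts for both. ACAAAG was in 1 of the 4 promoters (*Sox2*) and in 1 of the 10 (*Hepacam*), and in 18.7% of all 27025 promoters. ACAATG and TATAAA were in none of the 14, and in 12.8% and 14.2% of all promoters. The *Gfap* promoter (minus strand, chr11:102897151-102897450), of the gene with 0 UMIs in the kept PC20 cells, is shown first. Beside it are the *Sox2* promoter (plus strand, chr3:34649745-34650044) and the *Hepacam* promoter (plus strand, chr9:37367356-37367655), with ACAAAG in capitals.
Gfap: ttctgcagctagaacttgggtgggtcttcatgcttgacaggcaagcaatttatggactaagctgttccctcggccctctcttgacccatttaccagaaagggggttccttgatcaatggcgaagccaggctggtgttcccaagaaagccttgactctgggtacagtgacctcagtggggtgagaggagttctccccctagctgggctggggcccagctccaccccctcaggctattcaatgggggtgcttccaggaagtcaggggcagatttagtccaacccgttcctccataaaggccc
Sox2: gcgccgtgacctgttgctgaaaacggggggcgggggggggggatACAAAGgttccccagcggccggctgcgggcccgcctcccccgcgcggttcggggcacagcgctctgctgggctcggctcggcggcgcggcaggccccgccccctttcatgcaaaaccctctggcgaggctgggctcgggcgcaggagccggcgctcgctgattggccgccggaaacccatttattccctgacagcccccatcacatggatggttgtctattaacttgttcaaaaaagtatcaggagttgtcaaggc
Hepacam: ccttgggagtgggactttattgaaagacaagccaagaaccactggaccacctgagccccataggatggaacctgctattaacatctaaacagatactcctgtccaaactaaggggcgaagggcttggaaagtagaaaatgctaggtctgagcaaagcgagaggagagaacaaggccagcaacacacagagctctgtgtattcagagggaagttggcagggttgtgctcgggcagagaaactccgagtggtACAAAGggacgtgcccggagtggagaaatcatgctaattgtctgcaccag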

How the data were processed

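Libraries were made with a 10x Genomics 3′ kit, and the authors ran Cell Ranger 5.0 on mm10 (submitters' processing notes). The deposited values are raw UMI counts for each gene in each barcode, with no normalization. One library per passage was analysed, grouped by its label, and the cell filter is that of the study. From the counts, CPM was computed over summed cells in Python 3.11.15 with numpy 2.4.6, scipy 1.17.1 and pandas 2.3.3, and figures were drawn with matplotlib 3.10.9. Log2 ratios carry no pseudocount and have exact conditional binomial 95% intervals. CPM intervals are exact Poisson. A set with 0 UMIs was set to 3 UMIs for a bound. Matching took the 5 nearest cells in log total UMIs, each used once.

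The cells and gene lists were chosen with earlier results of these data known. Named genes were the 4 genes, members of the lists that a sentence needed, and the genes farthest in each direction (15 for all chosen cells, 5 for single-gene subsets) by the interval bound nearest 0, among genes with a UMI in at least 1% of cells and at least 20 UMIs, without pseudogenes, unnamed models and mitochondrial genes. *Gpm6b*, *Cst3*, *Car9*, *Chchd10* and *Xist* were named after their values were seen. No doublets were removed. The ratios were also tried on simulated data, and no value from that is given here. Alternatives changed the cell filter, the choice of cells, the matching, the depth, the scaling and the gene filter.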

Additional observations from a re-analysis of the deposited data

Results flagged for a closer look

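Barcodes outside the cell filter were not used in the report. Among the 135 left-out PC20 barcodes, 12 UMIs of *Six3*, 9 of *Sox2* and 12 of *Pax6* were found, more than the 3 counts that a count of 0 allows. No library was a control. The 679 left-out PC5 barcodes held 3 UMIs of the 4 genes in 2 barcodes, which is not above that limit.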

How the results depend on the processing

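With 1 library per passage, no value has a replicate check, and genes under about 3 UMIs in a set could not be told from 0. The 30 named genes, those farthest in each direction, gave 409 ratios under 14 alternatives. Of these, 336 moved by less than their counting interval, 73 moved further and none changed sign. A ratio was left out where a set had 0 UMIs and the bound against 3 UMIs lay at or past 0. A change of sign could not appear there. Moves past the interval were most frequent in thinned cells (20 of 23 ratios), with 1 matched cell each (19 of 30) and without the 26 cells named below (15 of 28). Requiring 2 UMIs of the 4 genes left 41 cells, with 734 genes higher and 529 lower than in matched cells (243 and 94 as reported). Without *Pax6* there were 65 cells, 448 higher and 272 lower genes. Thinned cells gave 48 cells, 439 higher and 401 lower genes and 2 cells with a profile share above 0.5. With 1 matched cell each, 193 genes were lower, and with means over cells 150. A pseudocount of 1 on mean UMIs per 10000 left 15 higher and 0 lower genes, and 303 in place of 4268 against PC20. Genes seen in at least 1% of cells gave 1815 higher, 779 lower and 7169 against PC20, and those in at least 25% gave 60 higher and 14 lower. A profile share above 0.2 held for 19 cells and above 0.8 for 1. Without the 26 cells holding 3 or more restricted genes, an alternative chosen after seeing the data, 99 genes were higher, and the median log2 ratio of the neural and glial lists was 0.07 (0.0740) in place of 0.67. The cause of these moves was not tested. No paired analysis was possible because each passage had 1 library.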
